A study of Homo sapiens with 3 samples.

Results

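Levels of 10 S100 calcium-binding protein genes were followed in 3 populations of HCC827, an established human lung adenocarcinoma line that depends on a mutated EGF receptor. The genes were taken by symbol from the deposited expression table: S100A2, S100A4, S100A6, S100A7, S100A8, S100A9, S100A10, S100A11, S100A14 and S100P. All 10 were found, each on 1 row with no missing cell, among 30866 symbols in the table. The cells of every population carried ClonTracer DNA barcodes and formed a polyclonal pool. The dual-resistant cells descend from the erlotinib-resistant ones, after 10 more days with 0.2 µM of the MET kinase inhibitor crizotinib added to 2 µM erlotinib. The erlotinib-resistant population had spent 47 days in 2 µM erlotinib, which inhibits the EGF receptor kinase, and the vehicle population 4 days in 0.1% DMSO. There was 1 library per population, so no difference below has an error estimate or a test, and resistance, drug and time in culture cannot be told apart.

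S100 proteins are small proteins with a pair of EF-hands, the helix-loop-helix motif that holds calcium, and most work as dimers that grip a partner protein once calcium is bound. Some stay inside the cell, where they bind annexins, myosin, ezrin or p53, and some are released and bind surface receptors such as RAGE. Most human S100 genes lie in a cluster on chromosome 1 beside the genes of the cornified envelope of skin, and several of them are markers of squamous or inflamed epithelium. In lung adenocarcinoma S100P and S100A4 are among the members most often studied.

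Values are FPKM, fragments per kilobase of transcript and per 1000000 mapped fragments, as the authors deposited them, so levels can be set side by side between genes. Differences are log2 differences of FPKM + 1, which understate the differences of genes near 0. A gene was called higher or lower at a log2 difference of 1 or more, which is 2-fold on that scale. The table has no counts. From the lowest values of single-exon genes, a single fragment in a transcript 1 kb long equalled roughly 0.0231 FPKM in dual-resistant, 0.0212 in erlotinib-resistant and 0.0145 in vehicle cells, and the fragment numbers below are rough estimates from these.

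Of the 10 genes, 5 were near or at 0 in dual-resistant cells, 3 stayed abundant, and S100A2 and S100A4 lay between these levels there. S100A9, S100P, S100A14, S100A7 and S100A8 together stood at 1.62 FPKM in dual-resistant cells, 218 in erlotinib-resistant cells and 1458 in vehicle cells. These 5 were grouped after their values were seen. S100A7 and S100A8 are among them through a listed 0, and whether such a 0 stands for no RNA or for an estimate that failed cannot be told apart here. S100A6, S100A10 and S100A11 together stood at 1955 FPKM in dual-resistant cells, 2999 in erlotinib-resistant cells and 3206 in vehicle cells. The summed level of all 10 genes was 1974 FPKM in dual-resistant cells, 3233 in erlotinib-resistant cells and 4689 in vehicle cells, or 0.399% of all FPKM in dual-resistant, 0.611% in erlotinib-resistant and 0.787% in vehicle cells. In bulk RNA, fewer cells that express a gene and less of its RNA per cell cannot be told apart.

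**Figure D1:**
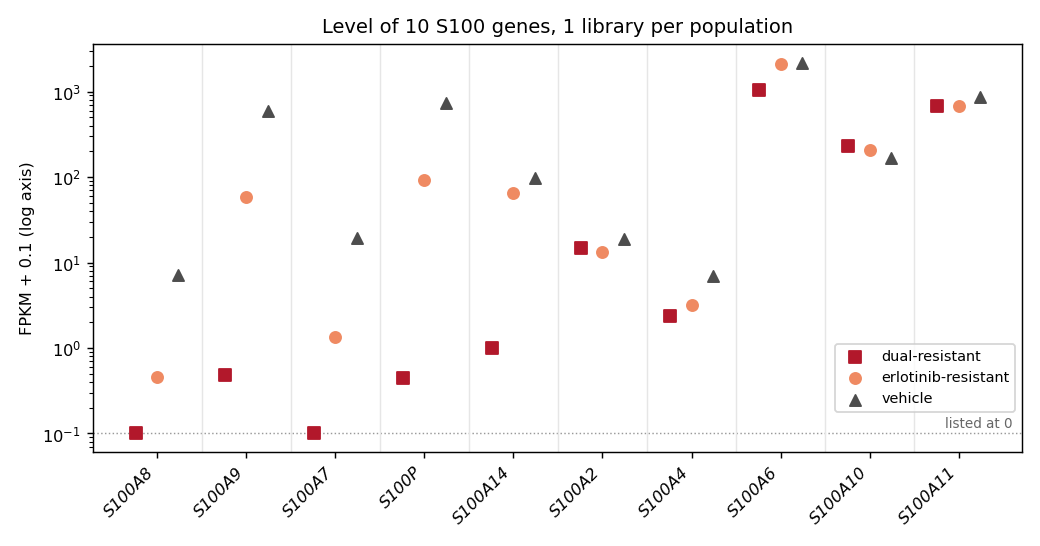
Level of each gene in each library as FPKM + 0.1 on a log axis, with 1 point per library and no error bars because no population had a replicate. S100A9, S100P and S100A14 lie below 1 FPKM in dual-resistant cells and S100A7 and S100A8 at the line for genes listed at 0, whereas S100A6, S100A10 and S100A11 lie above 100 FPKM in all 3 libraries.

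S100A8 and S100A9 encode the subunits of calprotectin, a metal-binding antimicrobial dimer of neutrophils and inflamed epithelia that also acts on RAGE and TLR4 when released. S100A9 (Entrez ID 6280, chromosome 1, 153330330 to 153333503 on GRCh37, as for all genes here) had 0.388 FPKM in dual-resistant cells, 58.7 in erlotinib-resistant cells and 598 in vehicle cells. Its level was thus near the floor in dual-resistant cells, intermediate in erlotinib-resistant cells and among the highest of all genes in vehicle cells, where it ranked 136 of 13399. S100A9 was 43.0-fold lower in the dual-resistant than in erlotinib-resistant cells and 10.0-fold lower in the erlotinib-resistant than in vehicle cells. Only about 9.70 fragments stood behind the dual-resistant value, so its size is imprecise.

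S100A8 (Entrez ID 6279, chromosome 1, 153362508 to 153363664) was listed at 0 in dual-resistant cells and stood at 0.359 FPKM in erlotinib-resistant cells and 7.10 in vehicle cells. It was 5.96-fold lower in erlotinib-resistant than in vehicle cells, and its log2 difference of -0.44 between the dual-resistant and erlotinib-resistant libraries stayed inside the limit. From 0.359 FPKM even a fall to 0 stays inside the limit on this scale, so no lower call was possible at that step. S100A8 reached 1 FPKM in vehicle cells alone, so the filter fixed the direction of its differences from vehicle. Although the proteins work as a dimer, S100A9 RNA exceeded S100A8 RNA 164-fold in erlotinib-resistant cells and 84.2-fold in vehicle cells. Only about 8.38 to 8.85 fragments stood behind the erlotinib-resistant S100A8 value, so the 164-fold ratio and the 5.96-fold difference are imprecise.

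Because both genes are abundant in myeloid cells, 8 markers of those cells were read in the same libraries. The summed level of the markers was 1.44 FPKM in dual-resistant cells, 0.866 in erlotinib-resistant cells and 4.23 in vehicle cells. CD14, also made by epithelia, held 4.10 FPKM of the vehicle sum and was the only marker to reach 1 FPKM in any library. It stood at 0.612 FPKM in dual-resistant and 0.597 in erlotinib-resistant cells. Between the erlotinib-resistant and vehicle libraries it was called lower, as S100A8 and S100A9 were, with a log2 difference of -1.67. The filter fixed that direction, and its part in the S100A8 and S100A9 values was not tested. ITGAM stood at 0.457 FPKM in dual-resistant, 0.0395 in erlotinib-resistant and 0.0804 in vehicle cells. CD33 stood at 0.344 FPKM in dual-resistant and 0.0177 in erlotinib-resistant cells and was listed at 0 in vehicle cells. ELANE and FCGR3B, which mark neutrophils, were listed at 0 in all 3 libraries. PTPRC, the pan-leukocyte marker CD45, stood at 0.0131 FPKM in dual-resistant, 0.137 in erlotinib-resistant and 0.00818 in vehicle cells. CSF3R stayed at or below 0.0677 FPKM and MPO at or below 0.0107.

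S100A7, known as psoriasin, is a chemotactic and antibacterial protein of squamous and inflamed epithelium. Its gene (Entrez ID 6278, chromosome 1, 153430220 to 153433137) was listed at 0 in dual-resistant cells and stood at 1.26 FPKM in erlotinib-resistant cells and 19.5 in vehicle cells, on about 26.3 fragments in erlotinib-resistant and 593 in vehicle cells. With the listed 0 taken as measured it was called lower at both steps, with log2 differences of -1.18 between the dual-resistant and erlotinib-resistant libraries and -3.18 between the erlotinib-resistant and vehicle libraries. Of its 50-base stretches, 14.2% also occur in its close copy S100A7A, so reads may be split between them. S100A7A was listed at 0 in both resistant libraries and stood at 0.331 FPKM in vehicle cells.

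S100P, a binder of ezrin and RAGE that is common in adenocarcinomas, is the only one of the 10 genes outside chromosome 1 (Entrez ID 6286, chromosome 4, 6695566 to 6698897). It stood at 0.341 FPKM in dual-resistant cells, 92.8 in erlotinib-resistant cells and 735 in vehicle cells. S100P was 70.0-fold lower in dual-resistant than in erlotinib-resistant cells and 7.85-fold lower in erlotinib-resistant than in vehicle cells. In the plain ratio of FPKM the vehicle level was 2157 times the dual-resistant one, a figure that rests on about 18.9 fragments in dual-resistant cells.

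S100A14, a membrane-associated epithelial S100 protein that can also act on RAGE, followed another course (Entrez ID 57402, chromosome 1, 153586732 to 153588808). It stood at 0.890 FPKM in dual-resistant cells, 64.5 in erlotinib-resistant cells and 97.9 in vehicle cells. The erlotinib-resistant and vehicle levels differed by a log2 difference of -0.60, inside the limit, whereas the dual-resistant level was 34.6-fold below the erlotinib-resistant one. Most of the decline of S100A14 thus lay between the resistant populations, while S100A9 and S100P were called lower at both steps. S100A8 was called lower at the earlier step, and its erlotinib-resistant level was too low for a lower call at the later one.

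**Figure D2:**
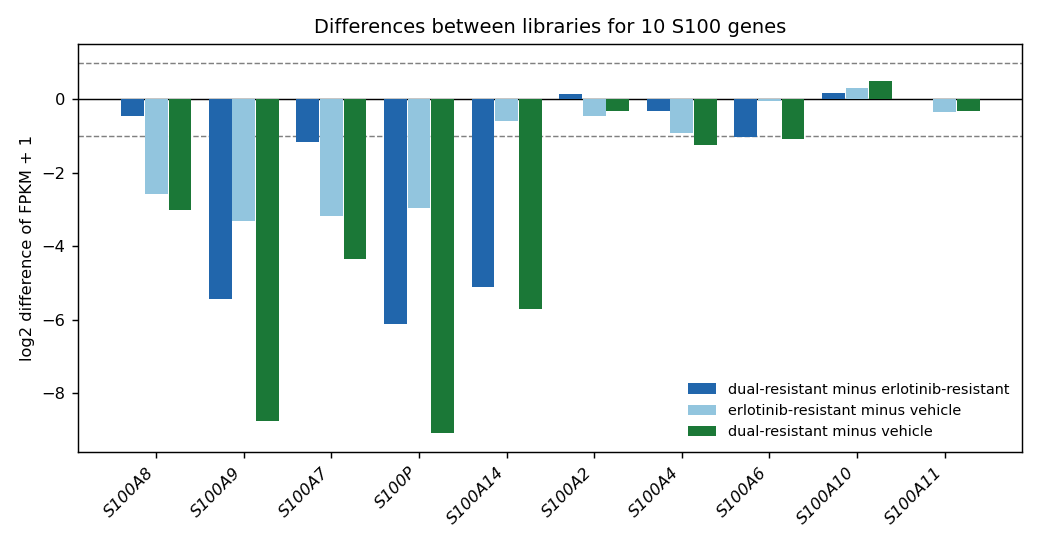
Log2 difference of FPKM + 1 for each of the 10 genes in the 3 comparisons, with dashed lines at the limits of 1 and -1. Bars of S100A9, S100P and S100A14 reach beyond -5 between the dual-resistant and erlotinib-resistant libraries, and those of S100A10 and S100A11 stay between the dashed lines in every comparison.

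Promoter windows of the 250 bases before each annotated start were taken from RefSeq on GRCh38.p14. All 10 genes matched by symbol, with 13 windows because S100A8 has 3 starts and S100A2 has 2. The windows of the 3 genes with the lowest dual-resistant differences and of the 2 abundant genes that stayed inside the limit in all comparisons are shown, so that they can be read beside each other. Capitals mark matches to 6 motifs searched on both strands: TATAAA for the TATA box, TGANTCA for AP-1, TTGCNNAA for C/EBP factors, CCGGAA for ETS factors, GGGCGG for the GC box and CAGGTG for the E-box type bound by ZEB and SNAI factors.
S100A9, chr1:153357604-153357853, plus strand: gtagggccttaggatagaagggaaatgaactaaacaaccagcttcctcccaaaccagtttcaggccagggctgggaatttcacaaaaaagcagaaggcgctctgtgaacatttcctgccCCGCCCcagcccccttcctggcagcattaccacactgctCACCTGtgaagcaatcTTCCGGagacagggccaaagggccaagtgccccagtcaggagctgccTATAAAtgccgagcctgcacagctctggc
S100P, chr4:6693628-6693877, plus strand: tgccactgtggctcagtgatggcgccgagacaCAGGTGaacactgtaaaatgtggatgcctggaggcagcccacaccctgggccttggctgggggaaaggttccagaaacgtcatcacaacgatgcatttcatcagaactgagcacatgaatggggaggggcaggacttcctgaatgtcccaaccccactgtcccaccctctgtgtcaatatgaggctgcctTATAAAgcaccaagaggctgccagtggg
S100A14, chr1:153616326-153616575, minus strand: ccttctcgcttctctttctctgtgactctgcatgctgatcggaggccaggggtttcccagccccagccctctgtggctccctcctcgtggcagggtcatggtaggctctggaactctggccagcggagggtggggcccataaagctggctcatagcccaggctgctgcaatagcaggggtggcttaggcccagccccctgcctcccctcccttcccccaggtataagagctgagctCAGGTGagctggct
S100A10, chr1:151993860-151994109, minus strand: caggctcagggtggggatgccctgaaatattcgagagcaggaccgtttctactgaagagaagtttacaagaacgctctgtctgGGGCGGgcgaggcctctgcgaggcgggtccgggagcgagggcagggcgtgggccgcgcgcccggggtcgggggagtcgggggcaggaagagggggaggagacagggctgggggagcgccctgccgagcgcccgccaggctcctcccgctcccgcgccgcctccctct
S100A11, chr1:152037005-152037254, minus strand: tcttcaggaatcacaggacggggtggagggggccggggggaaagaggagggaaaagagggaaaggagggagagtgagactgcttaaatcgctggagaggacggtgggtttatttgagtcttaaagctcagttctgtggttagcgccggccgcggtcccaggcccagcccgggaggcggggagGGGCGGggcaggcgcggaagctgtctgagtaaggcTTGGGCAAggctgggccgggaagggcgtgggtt

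The CAGGTG match, read as CACCTG on the other strand, was present in all 5 genes near or at 0 in dual-resistant cells, S100A7, S100A8, S100A9, S100A14 and S100P. It was also present in S100A4 and in 1 of the 2 windows of S100A2, and so in 7 of 10 genes. By window it was in 9 of 13, against 17.5% of all 35114 windows in the table. The 3 windows of S100A8, which overlap, all held the match. In S100A9 it began 92 bases before the start, in S100P 218 bases and in S100A14 14 bases. No CAGGTG lay in the windows of S100A6, S100A10 and S100A11, which each held at least 1 GC box, as did S100A9 and 42.6% of all windows. The letters TATAAA stood 29 bases before the start in S100A9 and 28 bases before it in S100P and S100A7. They were found in 5 of 10 genes and in 6 of 13 windows, against 10.7% of all windows. CpG dinucleotides numbered 24 in the windows of S100A6 and S100A10 and 15 in that of S100A11, but 4 each in those of S100A9, S100P and S100A14 and 1 in that of S100A7. S100A2, inside the limit in every comparison, had as few, with 4 and 3 in its windows, S100A4 had 7, and each window of S100A8 had 2. The median over all windows was 11, and 34.3% of them had at most 4. AP-1 letters were found in S100A2 alone (6.57% of all windows), ETS letters in S100A6 and S100A9 (14.5%) and C/EBP letters in S100A11 alone (9.05%). The only matches that overlapped were neighbouring GC boxes of S100A6. A match is only a run of letters, and no binding was measured.

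S100A6, S100A10 and S100A11 made up 99.1% of the summed level of the 10 genes in dual-resistant cells, 92.8% in erlotinib-resistant cells and 68.4% in vehicle cells. S100A6, or calcyclin, binds CACYBP, an adaptor of ubiquitin ligases (Entrez ID 6277, chromosome 1, 153507076 to 153508717). It stood at 1040 FPKM in dual-resistant cells, 2115 in erlotinib-resistant cells and 2184 in vehicle cells, and was the highest of the 10 genes in each. S100A6 was 2.03-fold lower in dual-resistant than in erlotinib-resistant cells, just past the limit, and after the sums of FPKM were made equal its log2 difference was -0.93 and not called. The erlotinib-resistant and vehicle levels of S100A6 differed by -0.05, and by 0.13 once the sums were equal, so the sign turned with the scaling. In FPKM, S100A6 supplied 85.3% of the fall of the summed level between the dual-resistant and erlotinib-resistant libraries, whereas S100P and S100A9 supplied 44.1% and 37.0% of that between the erlotinib-resistant and vehicle libraries.

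S100A10, the member that does not bind calcium, holds annexin A2 in a complex that docks plasminogen at the cell surface (Entrez ID 6281, chromosome 1, 151955386 to 151966714). It stood at 232 FPKM in dual-resistant cells, 205 in erlotinib-resistant cells and 165 in vehicle cells, the only one of the 10 genes whose level was higher in each later population. Its log2 difference was 0.18 between the dual-resistant and erlotinib-resistant libraries, 0.31 between the erlotinib-resistant and vehicle libraries and 0.49 between the dual-resistant and vehicle libraries, so that none passed the limit. S100A11, a partner of annexin A1 (Entrez ID 6282, chromosome 1, 152004982 to 152009511), stood at 683 FPKM in dual-resistant cells, 679 in erlotinib-resistant cells and 857 in vehicle cells. Its largest difference was -0.33, between the erlotinib-resistant and vehicle libraries.

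**Figure D3:**
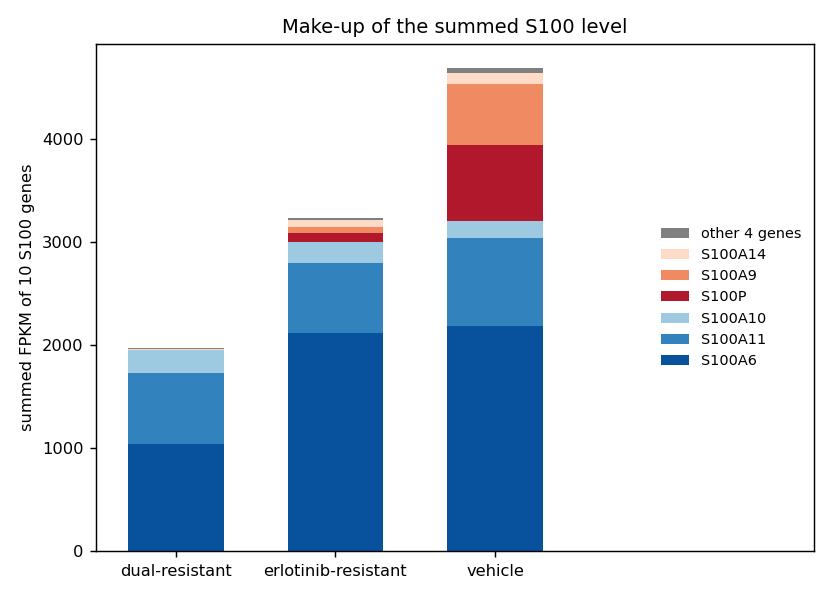
Summed FPKM of the 10 genes in each library, stacked by gene, with S100A2, S100A4, S100A7 and S100A8 drawn together in grey. The dual-resistant bar of 1974 FPKM is almost wholly S100A6, S100A11 and S100A10, and the red and orange parts for S100P and S100A9 are largest in the vehicle bar of 4689 FPKM.

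S100A4, called metastasin, binds non-muscle myosin and is often used as a marker of motile and fibroblast-like cells. Its gene (Entrez ID 6275, chromosome 1, 153516095 to 153518282) stood at 2.27 FPKM in dual-resistant cells, 3.10 in erlotinib-resistant cells and 6.79 in vehicle cells. It was lowest in dual-resistant cells and was called lower there against vehicle, with a log2 difference of -1.25, while its differences of -0.33 and -0.93 at the separate steps stayed inside the limit. The fibroblast markers read beside it summed to 8.27 FPKM in dual-resistant, 2.57 in erlotinib-resistant and 3.90 in vehicle cells over 8 genes. Of these, 3 passed the filter and 2 were called higher in dual-resistant than in erlotinib-resistant cells, where 10.1% of all genes were higher. LUM stood at 1.52 FPKM in dual-resistant against 0.0725 in erlotinib-resistant cells. PDGFRB stood at 1.01 FPKM in dual-resistant cells with 0 listed in erlotinib-resistant cells. Both reached 1 FPKM in dual-resistant cells alone, so the filter fixed their direction. In vehicle cells LUM stood at 0.0291 FPKM and PDGFRB was listed at 0. COL1A1 stood at 5.38 FPKM in dual-resistant, 2.48 in erlotinib-resistant and 3.84 in vehicle cells, inside the limit, and PDGFRA was listed at 0 throughout. The part of these markers in the S100A4 values was not tested. S100A2, a nuclear p53-binding protein of basal epithelium (Entrez ID 6273, chromosome 1, 153533585 to 153538306), stood at 14.7 FPKM in dual-resistant cells, 13.3 in erlotinib-resistant cells and 18.6 in vehicle cells. All its differences were inside the limit, between -0.46 and 0.14.

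Between the dual-resistant and erlotinib-resistant libraries, 5 of the 10 genes were lower, none higher and 5 inside the limit, where 7.22% of all 13385 genes compared were lower and 10.1% higher. The median log2 difference was -0.73 over the 10 genes and -0.03 over all genes. S100P ranked 6, S100A9 ranked 10 and S100A14 ranked 13 from the lowest difference among all genes compared. Between the erlotinib-resistant and vehicle libraries, 4 of the 10 were lower and none higher, against 6.03% and 3.81% of 13381 genes, with medians of -0.76 over the 10 and 0.00095 over all. All 4 of these, S100A7, S100A8, S100A9 and S100P, were lower by a log2 difference of 2 or more, a size seen in 1.59% of all genes. S100A8 reached 1 FPKM in vehicle cells alone. The filter thus fixed its direction here and between the dual-resistant and vehicle libraries, where it is also counted. Between the dual-resistant and vehicle libraries 7 of the 10 were lower and none higher, against 10.4% and 11% of 13378 genes, with medians of -2.14 over the 10 and -0.01 over all. The first and second of these comparisons share the erlotinib-resistant library, and the genes were chosen with results of these data known, so the shares describe the set and do not test it.

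**Figure D4:**
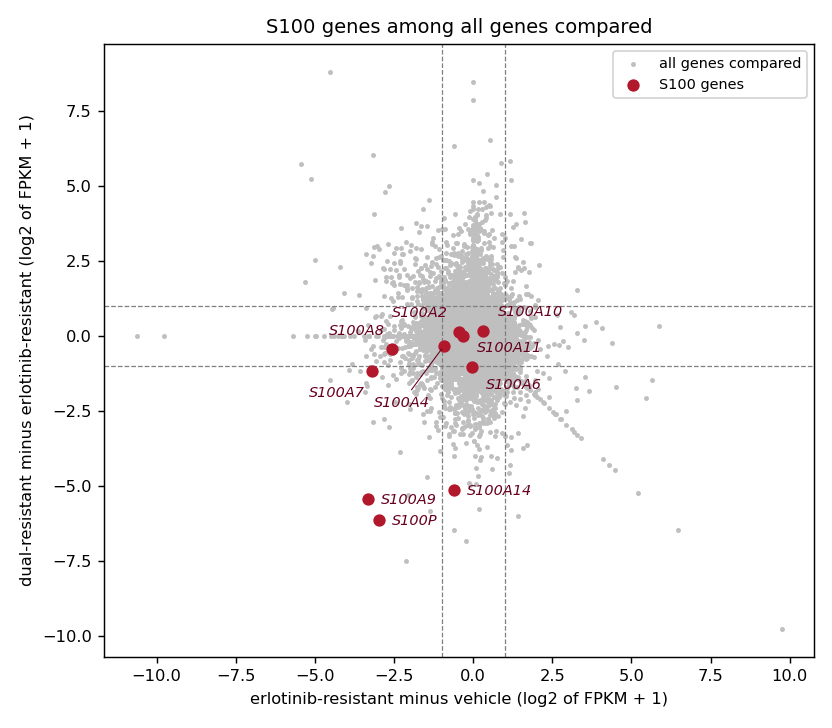
Each grey point is a gene compared, placed by its erlotinib-resistant minus vehicle difference (x axis) and its dual-resistant minus erlotinib-resistant difference (y axis), both as log2 of FPKM + 1, with dashed lines at 1 and -1. The axes share the erlotinib-resistant library. S100A9 and S100P lie at the lower left, S100A14 below the centre, S100A7 and S100A8 at the left, and the other S100 genes within the central cloud.

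Among the other 11 S100 genes in the table, 3 passed the filter of 1 FPKM. S100A3, a protein of the hair cuticle, stood at 4.30 FPKM in dual-resistant cells, 0.286 in erlotinib-resistant cells and 0.491 in vehicle cells, and was the only S100 gene called higher, by 4.12-fold against the erlotinib-resistant library. It reached 1 FPKM in dual-resistant cells alone, so the filter fixed that direction. S100A16 stood at 137 FPKM in dual-resistant, 98.5 in erlotinib-resistant and 109 in vehicle cells, and S100A13, an aid to the release of FGF1, at 84.8 FPKM in dual-resistant, 121 in erlotinib-resistant and 158 in vehicle cells. Neither passed the limit. S100A5 stayed at or below 0.340 FPKM and S100A12, the remaining calgranulin gene, at or below 0.139, with S100A12 listed at 0 in dual-resistant cells. S100A1, S100A7L2, S100B, S100G and S100Z were listed at 0 throughout, S100A1 within the span of S100A13, so reads there cannot be assigned with certainty. None of the 7 fused-type S100 genes, which encode filaggrin-like proteins with an S100 domain, reached 1 FPKM, and FLG was the highest of them at 0.254 FPKM in dual-resistant cells. S100PBP, which encodes a binding protein of S100P and was named after its values were seen, stood at 4.42 FPKM in dual-resistant and 5.61 in erlotinib-resistant cells and was listed at 0 in vehicle cells. Whether that 0 stands for no RNA or for an estimate that failed cannot be told apart here.

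Of 7 receptors for released S100 proteins, 5 passed the filter. MCAM, an adhesion molecule that binds the calprotectin subunits, stood at 210 FPKM in dual-resistant cells, 17.3 in erlotinib-resistant cells and 14.4 in vehicle cells, and was 11.5-fold higher in dual-resistant than in erlotinib-resistant cells. AGER, which encodes RAGE, stood at 0.798 FPKM in dual-resistant, 1.63 in erlotinib-resistant and 2.87 in vehicle cells, and was called lower in dual-resistant cells against vehicle alone, with a log2 difference of -1.11, a call that was lost once the sums of FPKM were made equal. BSG, a surface glycoprotein that binds S100A9, stood at 339 FPKM in dual-resistant, 245 in erlotinib-resistant and 373 in vehicle cells, and NPTN, a receptor for S100A8, at 53.2 FPKM in dual-resistant, 41.5 in erlotinib-resistant and 62.2 in vehicle cells, both inside the limit throughout. ALCAM, an adhesion molecule that binds S100B, stood at 52.1 FPKM in dual-resistant, 73.8 in erlotinib-resistant and 79.5 in vehicle cells, also inside the limit. TLR4 stood at 0.0042 FPKM in dual-resistant cells and was listed at 0 in the other libraries, and CD36 stayed below 0.08 FPKM.

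Of 17 other partners 15 passed the filter, and 3 were higher and none lower between the dual-resistant and erlotinib-resistant libraries, where 10.1% of all genes were higher and 7.22% lower. MYH9, the myosin heavy chain that S100A4 binds, stood at 506 FPKM in dual-resistant, 186 in erlotinib-resistant and 119 in vehicle cells, so that it was 2.71-fold higher at the later step while S100A4 itself was lowest in dual-resistant cells. ANXA6, a membrane-binding annexin, stood at 8.31 FPKM in dual-resistant, 0.269 in erlotinib-resistant and 0.246 in vehicle cells, and reached 1 FPKM in dual-resistant cells alone, so the filter set its direction. PLAT, the tissue plasminogen activator, was the third, at 2.53 FPKM in dual-resistant, 0.496 in erlotinib-resistant and 2.30 in vehicle cells. ANXA2, the annexin of the S100A10 complex, stood at 738 FPKM in dual-resistant, 451 in erlotinib-resistant and 572 in vehicle cells, inside the limit. AHNAK, a scaffold of the same complex, stood at 38.8 FPKM in dual-resistant, 24.4 in erlotinib-resistant and 9.34 in vehicle cells, and was called higher at the earlier step, by 2.46-fold, where PLAT was lower. ANXA1, the partner of S100A11, stood at 548 FPKM in dual-resistant, 604 in erlotinib-resistant and 767 in vehicle cells. EZR, the ezrin bound by S100P, stood at 95.8 FPKM in dual-resistant, 75.9 in erlotinib-resistant and 116 in vehicle cells, and CACYBP, the partner of S100A6, at 37.5 FPKM in dual-resistant, 27.6 in erlotinib-resistant and 24.8 in vehicle cells. None of these 3 passed the limit in any comparison. PPFIBP1 stood at 17.5 FPKM in dual-resistant, 17.6 in erlotinib-resistant and 9.14 in vehicle cells. FABP5 stood at 10.8 FPKM in dual-resistant, 16.5 in erlotinib-resistant and 9.15 in vehicle cells. Both stayed inside the limit throughout.

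All of the 10 genes but S100P lie in the cluster on chromosome 1, and neighbours there shared calls in part. Between the dual-resistant and vehicle libraries, S100A9, S100A8, S100A7, S100A6 and S100A4 were all called lower. S100A6 was at -0.80 and not called once the sums of FPKM were made equal. S100A7 and S100A8 rest on a listed 0 in dual-resistant cells. S100A8 passed the filter through vehicle alone, so the filter fixed its direction from vehicle. Among the genes that passed the filter, S100A9 to S100A4 follow each other without a gap. S100A3, the next such gene, was called higher there, S100A2 stayed inside the limit and S100A14 was called lower. S100A14 lies between S100A16 and S100A13, neither of which passed the limit in any comparison, although S100A14 was 34.6-fold lower in dual-resistant than in erlotinib-resistant cells. S100A9, S100A8 and S100A7 are neighbours among the genes that passed the filter, and all 3 were called lower between the erlotinib-resistant and vehicle libraries, as was PGLYRP4 on the other side of S100A9, which encodes a peptidoglycan recognition protein. PGLYRP4 stood at 0.0150 FPKM in dual-resistant, 0.241 in erlotinib-resistant and 3.85 in vehicle cells, and passed the filter through vehicle alone. S100A6, next to S100A7, differed by -0.05 at that step. Of the 32 other genes of the cluster and 500 kb on either side that passed the filter, 4 were higher and 6 lower between the dual-resistant and erlotinib-resistant libraries, against 10.1% higher and 7.22% lower among all genes. Between the erlotinib-resistant and vehicle libraries none was higher and 2 lower, against 3.81% and 6.03%, and between the dual-resistant and vehicle libraries 4 were higher and 11 lower, against 11% and 10.4%. Among the cornified envelope genes of the window, SPRR2D, SPRR1B and SPRR1A were lower in dual-resistant than in erlotinib-resistant cells, with log2 differences of -4.95, -2.97 and -1.78, and SPRR2A was lower at the earlier step, by -2.94. SPRR2D, SPRR1B and SPRR2A were listed at 0 in dual-resistant cells. SPRR2A stood at 0.598 FPKM in erlotinib-resistant and 11.3 FPKM in vehicle cells. It reached 1 FPKM in vehicle cells alone, so the filter fixed its direction at the earlier step. CRCT1, the next gene after S100A11 to pass the filter, was higher, with genes that failed the filter between them. It stood at 34.4 FPKM in dual-resistant and 0.236 in erlotinib-resistant cells with 0 listed in vehicle cells. The filter set its direction because it reached 1 FPKM in dual-resistant cells alone. Around S100P on chromosome 4, a window added after the values were seen, 12 genes within 500 kb passed the filter, and 2 were higher and none lower between the dual-resistant and erlotinib-resistant libraries, against 10.1% and 7.22% of all genes. PPP2R2C, a higher one, passed the filter through dual-resistant cells alone, at 9.21 FPKM. None of the 12 passed the limit between the erlotinib-resistant and vehicle libraries, and 1 was higher and 1 lower between the dual-resistant and vehicle libraries.

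**Figure D5:**
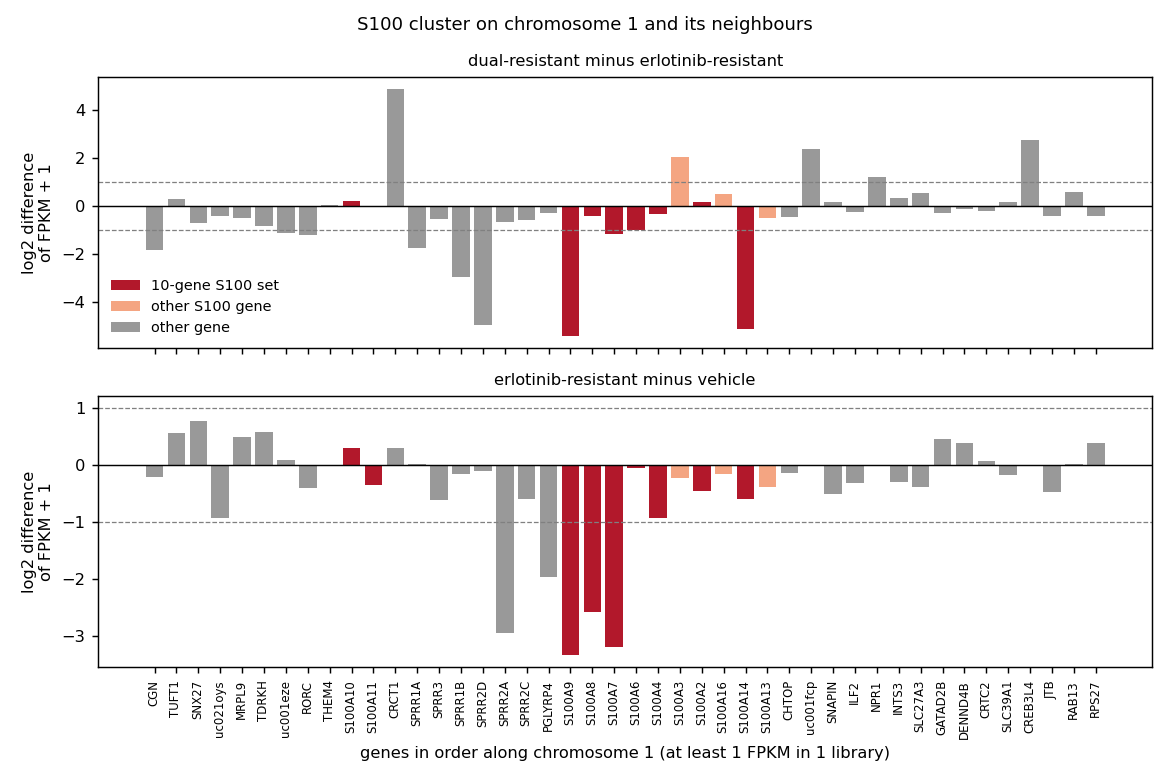
Log2 difference of FPKM + 1 for the genes that passed the filter, in their order along chromosome 1 from 500 kb before the first S100 gene to 500 kb after the last, with dashed lines at the limits of 1 and -1. Red bars mark the S100 genes described, and the long downward bars of S100A9 and S100A14 in the upper panel stand among shorter bars of S100A2, S100A4, S100A10 and S100A11.

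Genes outside the family with the nearest pattern were found by the Euclidean distance over the 2 stepwise log2 differences, among 10043 genes with at least 5 FPKM in 1 library and above 0 in all 3. For S100P and S100A9 the nearest gene was LCN2, which encodes a secreted lipocalin that binds bacterial siderophores, at distances of 1.23 and 1.26. LCN2 stood at 78.8 FPKM in dual-resistant, 3107 in erlotinib-resistant and 13088 in vehicle cells. The next were AZGP1 and DUSP6 for S100P, and SLPI, a secreted protease inhibitor, and DUSP6, a MAP kinase phosphatase, for S100A9. For S100A14 the nearest was the airway mucin gene MUC5B at a distance of 0.50, with 0.0838 FPKM in dual-resistant, 31.5 in erlotinib-resistant and 34.9 in vehicle cells. For S100A7 it was the chemokine gene CXCL17 at 0.067, with 0.0672 FPKM in dual-resistant, 1.33 in erlotinib-resistant and 19.5 in vehicle cells. For S100A8 the nearest was PNCK, at 0.050. The nearest gene was C5orf32 for S100A6, MAD2L2 for S100A10, TRIM6 for S100A11, TNIP1 for S100A2 and CYBA for S100A4. With 3 libraries such likeness is a description of these values only.

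As a check of the label, the 7 markers of a lung epithelial line were all above 1 FPKM in every library, with NKX2-1, a lung lineage factor, at 28.4 FPKM in dual-resistant, 40.0 in erlotinib-resistant and 56.0 in vehicle cells. Their summed level was 2320 FPKM in dual-resistant, 5240 in erlotinib-resistant and 5088 in vehicle cells. Between the dual-resistant and erlotinib-resistant libraries 4 of the 7 were lower and none higher, against 7.22% and 10.1% of all genes. KRT8, KRT19 and NKX2-1 stayed inside the limit, with log2 differences of -0.08, -0.74 and -0.48. The 4 lower ones were KRT7, KRT18, CDH1 and EPCAM. CDH1, the epithelial cadherin, stood at 22.8 FPKM in dual-resistant against 194 in erlotinib-resistant cells. EPCAM stood at 41.1 FPKM in dual-resistant against 345 in erlotinib-resistant cells. These 4 markers moved in the same direction as S100A14, S100P and S100A9 at that step, and their part in the S100 levels was not tested. Between the erlotinib-resistant and vehicle libraries none of the 7 passed the limit, while S100A7, S100A8, S100A9 and S100P were lower.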

How the data were processed

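RNA was sequenced from 3 populations of HCC827, with 1 library each. The authors deposited 1 table of gene FPKM values. Per the submitters' processing notes, TopHat 1.3, Cufflinks 1.3 and the build GRCh37 were named. Not given in the sources used here: gene set, settings, strandedness. Table starts were read as counting from 0 and are printed from 1. Rows that share a symbol were summed, missing cells were left out, and the 13425 genes that reached 1 FPKM in any library were compared.

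Log2 differences of FPKM + 1 were computed with pandas 2.3.3 in Python 3.11.15 and tested on simulated data. With 1 library per group no test was possible. Nothing is known of depth beyond the fragment estimate, which took the lowest percentile of single-exon values and GENCODE transcript lengths. All 10 genes and all other S100 genes were named. Of the receptor, partner and fused-type lists up to 4 genes with the largest differences in each comparison were named, and for each S100 gene up to 3 nearest in pattern. ANXA1, EZR, CACYBP, TLR4, CD36 and the marker genes were named beyond this rule. The genes and lists were chosen with earlier results of these data known. Of their 50-base stretches, S100A11 shares 2.20% with another gene. The alternatives were another pseudocount, filters, scalings, limit and handling of rows.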

Additional observations from a re-analysis of the deposited data

How the results depend on the processing

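Of 210 values of the 10 genes recomputed under 7 alternatives, 202 stayed on the same side of the limit, 6 were no longer called and 2 became called. No filter, the filter of 5 FPKM and the handling of rows could not change a value. Each gene sat on 1 row and reached 5 FPKM in some library. The 30 values under each of these alternatives were thus the same in advance and show no stability. Another limit changes calls but cannot change a sign. No called value changed sign. A single value inside the limit did, S100A6 between the erlotinib-resistant and vehicle libraries, at 0.13 with equal sums in place of -0.05. With a limit of log2 2, 3 of the 10 genes were lower between the dual-resistant and erlotinib-resistant libraries in place of 5, since S100A6 and S100A7 lay between the limits. Scaling each library to the same sum of FPKM left S100A6 at -0.93 between the dual-resistant and erlotinib-resistant libraries and at -0.80 between the dual-resistant and vehicle libraries, no longer called. It moved the median of all genes by 0.14 between the erlotinib-resistant and vehicle libraries and by 0.24 between the dual-resistant and vehicle libraries. The share of higher genes among all calls then moved to 53.7% in place of 38.7% and to 66.1% in place of 51.3%. A pseudocount of 0.1 brought S100A8 to -2.20 between the dual-resistant and erlotinib-resistant libraries and S100A4 to -1.11 between the erlotinib-resistant and vehicle libraries, both called, and raised all calls between the erlotinib-resistant and vehicle libraries to 2031 in place of 1317. At the limit of log2 2 all calls numbered 642, 271 and 892, in place of 2324, 1317 and 2867, in the order of the comparisons above. No paired analysis was possible because each population had 1 library. Depth limits the values under 1 FPKM, which stood on few fragments.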
